A study of Mus musculus with 778 samples.

Results

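The 10 genes of DNA methylation maintenance and imprint protection were followed through the growth of the mouse oocyte, as single-cell RNA-seq counts. The rule took the rows of the count table named *Dnmt1*, *Uhrf1*, *Dppa3*, *Zfp57*, *Trim28*, *Zfp445*, *Tet1*, *Tet2*, *Tet3* and *Tdg*, and all 10 were found among the 23201 genes of the table. The names were chosen for their known roles and not by a value, though earlier results of these data were known. The oocytes came from wild-type female ICR mice and were picked by hand into 5 stages by diameter. Non-growing oocytes (NGO) were under 20 μm, the growing stages GO1, GO2 and GO3 were 30 to 45, 50 to 55 and 60 to 65 μm, and fully-grown oocytes (FGO) were over 70 μm. NGOs were from mice of 3 to 4 days and the other 4 stages from mice of 3 to 4 weeks, so that age and stage cannot be told apart in any comparison with NGO.

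DNA methylation of CG sites is copied to the new strand by DNMT1, which UHRF1 brings to hemimethylated DNA. DPPA3 (STELLA) is a maternal factor known to keep UHRF1 out of the oocyte nucleus and to shield the maternal genome from TET3 after fertilization. ZFP57 and ZFP445 bind methylated imprint control regions and recruit TRIM28 (KAP1), which keeps the methylation there, while the TET enzymes oxidize 5-methylcytosine and TDG excises the products for base excision repair.

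The table held UMIs (molecules counted once by a random tag) of 46 NGO, 51 GO1, 26 GO2, 44 GO3 and 56 FGO cells, from 22279 to 3898137 UMIs per cell. The library of a cell is not named, so each stage was 1 pooled sample with no replicate, and no test between stages was possible. Levels are the UMIs of a gene, summed over a stage, per 1000000 UMIs of all genes (CPM). By the size rule used here a gene was called when 1 stage had at least 2-fold the CPM of the other, and no less than 10 CPM itself. Intervals are at 95% and cover counting error only. The 10 deepest cells held 80.4% of the GO1 and 73.2% of the GO2 UMIs, against 42.6% to 49.7% in the other stages, so the value of the median cell is given beside the sums of the members. All 10 oocyte markers reached 10 CPM, with a summed level of 26004, 13504, 15114, 15943 and 19696 CPM over the stages in the order above. From NGO to GO1, 5 of them were lower by the size rule (*Zp1*, *Zp2*, *Zp3*, *Figla* and *Ddx4*) and 1 was higher (*Bmp15*). In this step 25.7% of all genes tested were lower and 20.6% were higher. Of 10 granulosa markers 2 reached 10 CPM (*Cyp19a1* and *Nr5a2*), with a summed level of the list of 15.8 to 44.1 CPM across stages. Of 7 blood and endothelial markers 1 reached 10 CPM (*Pecam1*, list sum 9.09 to 50.5 CPM, with *Hba-a1*, *Hba-a2* and *Hbb-b1* at 0), and of 7 stromal markers 0 did (list sum 0.422 to 7.98 CPM, with *Tcf21* at 0). *Cyp19a1*, *Nr5a2* and *Pecam1* were higher in GO1 than in NGO by the size rule. These sums differed between NGO and GO1, and their part in the results was not tested. Since CPM are shares of a total, a change in 1 gene cannot be told apart from a change in all other RNA of the cell.

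Windows of 250 bases upstream of the RefSeq transcription starts of *Dnmt1* and *Uhrf1* (GRCm38.p6) are shown, because both genes fell together between the first 2 stages. RefSeq gave 3 starts for *Dnmt1*. Oocytes are known to make a shorter DNMT1 protein from a promoter of their own, and counts per gene do not tell which start was used. Capitals mark TGATTG or its reverse complement CAATCA, a motif chosen after the sequences were seen.
Dnmt1 chr9:20959889-20960138 (minus strand): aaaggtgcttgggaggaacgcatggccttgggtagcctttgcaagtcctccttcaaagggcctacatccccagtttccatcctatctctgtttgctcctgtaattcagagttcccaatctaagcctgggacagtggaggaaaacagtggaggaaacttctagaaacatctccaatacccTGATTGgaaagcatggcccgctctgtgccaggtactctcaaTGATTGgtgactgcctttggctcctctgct
Dnmt1 chr9:20952980-20953229 (minus strand): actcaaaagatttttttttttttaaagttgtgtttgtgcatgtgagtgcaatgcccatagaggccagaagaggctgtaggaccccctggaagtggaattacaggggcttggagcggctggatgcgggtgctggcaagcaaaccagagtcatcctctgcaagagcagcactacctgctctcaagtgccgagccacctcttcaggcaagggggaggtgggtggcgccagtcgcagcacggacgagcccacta
Uhrf1 chr17:56303087-56303336 (plus strand): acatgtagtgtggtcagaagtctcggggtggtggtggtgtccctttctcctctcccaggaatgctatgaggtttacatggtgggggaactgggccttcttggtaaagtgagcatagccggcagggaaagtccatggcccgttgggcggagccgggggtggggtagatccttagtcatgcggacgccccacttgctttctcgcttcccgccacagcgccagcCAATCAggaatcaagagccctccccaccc
Uhrf1 chr17:56304063-56304312 (plus strand): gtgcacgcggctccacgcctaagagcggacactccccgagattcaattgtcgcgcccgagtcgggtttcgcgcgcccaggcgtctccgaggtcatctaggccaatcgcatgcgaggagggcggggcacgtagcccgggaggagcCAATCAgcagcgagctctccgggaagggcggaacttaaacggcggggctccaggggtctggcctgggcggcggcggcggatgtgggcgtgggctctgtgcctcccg

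The upstream-most *Dnmt1* window held 2 CG dinucleotides and 2 TGATTG motifs, and the next one 7 CG and 0 TGATTG. The window of the third *Dnmt1* start, which is not printed, held 26 CG and 0 TGATTG. Both *Uhrf1* windows held 1 TGATTG, with 10 and 30 CG. Among 32851 RefSeq windows of the same length, searched on both strands, 12.7% held TGATTG and 1.51% held it at least 2 times, and the median number of CG was 6. TGATTG overlaps the CCAAT box where a G follows, and CCAAT on either strand was found in 33.8% of windows. The windows of the other members in the RefSeq table (*Zfp57*, *Trim28*, *Zfp445*, *Tet1*, *Tet2*, *Tet3* and *Tdg*) held 0 TGATTG. Because the motif was chosen after the sequences were seen, its link to the fall of *Dnmt1* and *Uhrf1* was not tested by these counts. Other motifs were counted in the same windows, and not all of them are reported here.

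The levels of the maintenance pair were highest in NGO and lower in every later stage. *Dnmt1* (chromosome 9, 20711650 to 20757317, minus strand of NCBIM37, as for each gene position here) summed to 1929.8, 909, 774, 865 and 1309 CPM in the sums of NGO, GO1, GO2, GO3 and FGO. Its NGO cells ranged from 884 to 3831 CPM (median 1866), its GO1 cells from 461 to 1992 (median 872), its GO2 cells from 306 to 1302 (median 627), its GO3 cells from 484 to 1649 (median 819) and its FGO cells from 451 to 3930.3 (median 1220.4). The lowest level was thus in GO2, and FGO cells spread across the whole NGO range. Of 46 NGO cells, 46 lay above the median GO1 cell and 21 above every GO1 cell.

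*Uhrf1* (chromosome 17, 56442744 to 56462909, plus strand) summed to 1169, 300.3, 214, 254 and 396 CPM over the 5 stages. Its NGO cells ranged from 616 to 1559 CPM (median 1146), and its GO1 cells from 18.9 to 648 (median 232). The cells had 65.3 to 379.6 CPM (median 152.01) in GO2, 109.2 to 535 (median 182) in GO3 and 108.2 to 958 (median 273) in FGO. NGO was nearly separate from the rest, with 44 of 46 NGO cells above every GO1 cell and 40 of 46 above every FGO cell. GO2 and GO3 cells overlapped.

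The 2 genes did not keep their proportion. From NGO to FGO, the stage sums held 0.606, 0.330, 0.277, 0.294 and 0.302 *Uhrf1* UMIs for each *Dnmt1* UMI. Within cells the quartiles of this ratio were 0.490 and 0.738 in NGO and 0.196 and 0.337 in GO1, so the interquartile ranges of these stages did not overlap. In FGO they were 0.179 and 0.314, as low as in the growing stages.

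*Dppa3* (chromosome 6, 122576428 to 122580290, plus strand) summed to 9193, 4955, 5139, 4707 and 6261 CPM over the 5 stages. Its NGO cells ranged from 5100.1 to 18252 CPM (median 8642), its GO1 cells from 2344 to 9208 (median 6207) and its GO2 cells from 3546 to 7703 (median 5439). Its GO3 cells had 2929 to 6749 CPM (median 4888) and its FGO cells 3519 to 18349.8 (median 7076). All stages overlapped, and in GO1 the median cell lay above the sum, which the deepest cells dominate. The proportion to *Uhrf1* differed between stages, and the *Dppa3* UMIs for each *Uhrf1* UMI numbered 7.87, 16.5, 23.98, 18.5 and 15.8 from NGO to FGO. In the median cell this ratio was 7.40 in NGO and between 25.6 and 36.1 in the other stages.

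Among the genes of imprint protection, *Zfp57* (chromosome 17, 37138108 to 37147580, plus strand) was lower in each later stage, with 0 consecutive steps past the size rule, at 454, 406, 375, 365 and 309.6 CPM. Its cells had medians of 439, 284, 370.4, 346 and 264 CPM, and the lowest and highest cells were at 204 and 703 CPM in NGO and at 75.2 and 424 CPM in FGO. Of 46 NGO cells, 27 lay above every FGO cell. In GO1 the median cell was far below the sum, and the direction of the step from GO1 to GO2 changed with the scaling and with the weighting of cells (log2 ratios from -0.10 to 0.38 under the other settings, -0.12 in the sums).

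*Trim28* (chromosome 7, 13609501 to 13616384, plus strand) summed to 27.3, 60.8, 37.03, 41.8 and 38.7 CPM, with cells from 0 to 58.2 CPM in NGO (median 24.4) and from 0 to 230.2 CPM in GO1 (median 32.8). The median cell was at 33.8 CPM in GO2, 39.5 in GO3 and 27.7 in FGO, so the GO1 peak of the sums was not seen in the typical cell. One GO1 cell carried 33.7% of the *Trim28* UMIs of that stage, and without it the GO1 level was 44.2 CPM. *Zfp445* (chromosome 9, 122761032 to 122771246, minus strand) was near the 10 CPM limit with 10.9, 12.3, 4.76, 9.03 and 7.90 CPM in the sums, and its median cells were at 9.82, 6.67, 4.11, 8.24 and 6.203 CPM. Both genes had a UMI in most cells of every stage, in 86.3% to 100% of cells for *Trim28* and 62.7% to 95.5% for *Zfp445*.

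Of the 3 TET enzymes, *Tet3* (chromosome 6, 83312367 to 83391672, minus strand), the oxidase of the zygote, had 122.4 CPM in the NGO and 337 CPM in the GO1 sum. Its cells ranged from 19.5 to 565 CPM (median 104.6) in NGO, from 70.03 to 1890.6 (median 248) in GO1, from 133.3 to 469 (median 220.1) in GO2, from 137.2 to 533 (median 228) in GO3 and from 12.5 to 469.9 (median 183) in FGO. Of 51 GO1 cells 49 lay above the median NGO cell, and 1 GO1 cell held 25.9% of the *Tet3* UMIs of its stage. Without that cell GO1 had 274 CPM, still above NGO. Set against *Dnmt1*, the *Tet3* UMIs for each *Dnmt1* UMI were 0.0634, 0.371, 0.297, 0.288 and 0.166 in the sums of the 5 stages. In the median cell this ratio was 0.0605, 0.321, 0.323, 0.282 and 0.145, so GO1 was highest in the sums but level with GO2 in the median cell.

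*Tet1* (chromosome 10, 62267318 to 62361866, minus strand) and *Tet2* (chromosome 3, 133126643 to 133207354, minus strand) were close to the limit of detection in single cells. *Tet1* had 1.79, 8.67, 6.05, 11.2 and 5.63 CPM in the sums, from between 45 UMIs in NGO and 558 in GO3, and its median cells were at 0, 7.29, 6.02, 10.9 and 1.46 CPM. *Tet2* had 6.31, 1.46, 1.20, 3.21 and 3.72 CPM, from between 30 UMIs in GO2 and 239 in FGO, with median cells at 5.40, 0, 0.240, 2.95 and 3.46 CPM. Their order between NGO and GO1 was opposite, with *Tet1* 4.86-fold (3.52 to 6.84) higher in GO1 and *Tet2* 4.33-fold (3.03 to 6.31) higher in NGO, and both stayed below 10 CPM there. *Tet1* had a UMI in 41.3% of NGO, 58.8% of GO1, 84.6% of GO2, 100% of GO3 and 58.9% of FGO cells.

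**Figure D1:**
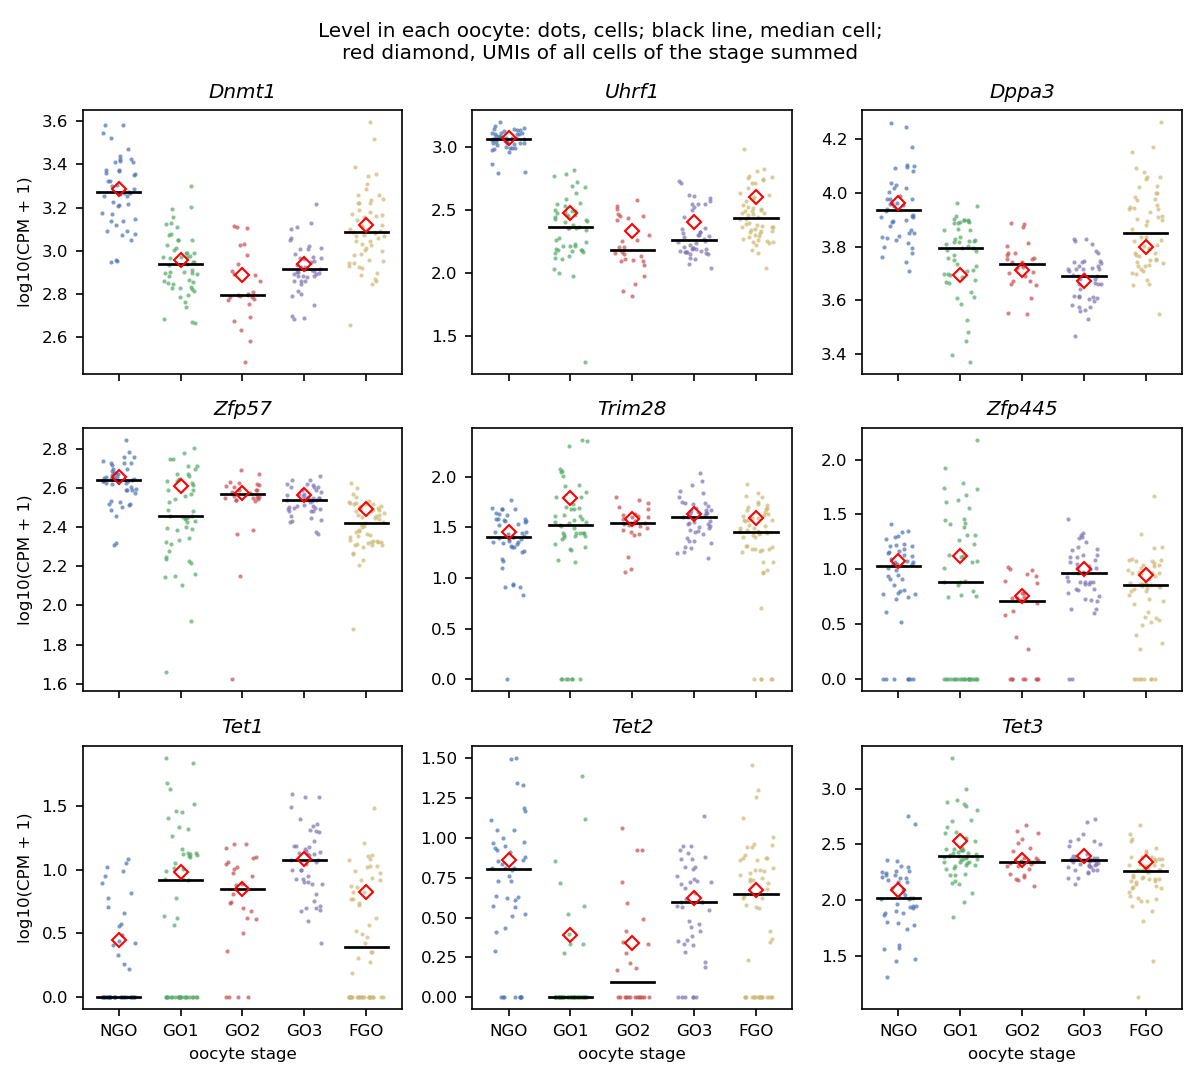
Level of the 9 members with a UMI in each oocyte, as log10(CPM + 1), by stage. Dots are cells, black lines the median cell and red diamonds the summed UMIs. *Uhrf1* NGO cells (616 to 1559 CPM) sit apart from the rest, while GO1 sums of *Trim28* and *Zfp57* lie above their median cells.

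*Tdg* (chromosome 10, 82092573 to 82113544, plus strand) had 0 UMIs in all 223 cells, out of 191061593 UMIs. A count of 0 allows up to 0.119, 0.112, 0.120, 0.0602 and 0.0466 CPM from NGO to FGO (3 UMIs of the stage total). Its longest annotated transcript (3502 bases) aligned to 5 other places of the NCBIM37 genome on 4 chromosomes at 95.98% to 99.6% identity. The last 90 coding bases are printed at the gene and at these copies to show how alike they are, and capitals mark the bases of a copy that differ from *Tdg*.
Tdg chr10:82111376-82111465 (plus strand): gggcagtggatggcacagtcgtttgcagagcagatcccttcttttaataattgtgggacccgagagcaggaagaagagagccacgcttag
copy chr10:41773919-41774008 (minus strand): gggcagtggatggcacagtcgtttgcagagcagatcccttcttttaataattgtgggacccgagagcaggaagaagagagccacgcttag
copy chr7:83389632-83389721 (minus strand): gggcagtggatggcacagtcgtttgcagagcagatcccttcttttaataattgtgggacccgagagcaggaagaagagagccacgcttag
copy chr15:82348018-82348107 (plus strand): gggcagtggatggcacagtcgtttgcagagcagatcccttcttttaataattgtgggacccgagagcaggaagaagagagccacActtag
copy chr19:33747818-33747907 (minus strand): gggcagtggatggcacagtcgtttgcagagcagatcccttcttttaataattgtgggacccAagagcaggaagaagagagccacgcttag

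Over these 90 bases the copies on chromosomes 10 and 7 had 0 differences from *Tdg*, and those on chromosomes 15 and 19 had 1 each. Reads from such a stretch cannot be placed by sequence alone, and how the alignment treated them is not given in the sources used here. The part of the copies in the count of 0 was not tested, so the table does not tell whether oocytes transcribe *Tdg*. A copy of at least 95% identity was also found for *Dppa3* (chromosome X, 97.7% identity over 98.1% of the transcript) and for *Uhrf1* (chromosome X, 97.8% over 71.8%), whose counts are uncertain to that extent, and for 0 of the other 7 members.

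From NGO to GO1, the entry into growth, *Dnmt1* and *Uhrf1* fell and *Trim28* and *Tet3* rose by the size rule, among 7 members that reached 10 CPM. *Uhrf1* was 3.89-fold (3.80 to 3.99) and *Dnmt1* 2.12-fold (2.09 to 2.16) lower in GO1, while *Tet3* was 2.76-fold (2.64 to 2.87) and *Trim28* 2.23-fold (2.03 to 2.44) higher. *Dppa3* was 1.86-fold lower (1.84 to 1.87) in the sums, just under the limit, with a log2 ratio of -0.89. The other settings gave -0.89 to -0.48, with -0.48 by the median cell and -0.59 without the 10 deepest cells. *Zfp57* (1.12-fold lower) and *Zfp445* (1.13-fold higher) were close to even in the sums. By other weights of the cells they were not, with a log2 ratio of *Zfp57* of -0.63 by the median cell, and of *Zfp445* of 0.87 by the mean over cells and -0.56, in the other direction, by the median cell. In this comparison 25.7% of 8527 genes were lower and 20.6% were higher by the same rule, so calls on both sides were common among all genes. The median log2 ratio of these genes was -0.15. Set against that median, the log2 ratios were -1.81 for *Uhrf1*, -0.94 for *Dnmt1*, 1.3003 for *Trim28* and 1.61 for *Tet3*.

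The calls of *Uhrf1* and *Tet3* held in each setting that kept the limits of 2-fold and 10 CPM. That of *Dnmt1* was lost with other scalings, with log2 ratios of -0.98 by DESeq2 size factors and -0.93 by TMM factors, which moved every gene of this step up by 0.10 and 0.16. That of *Trim28* depended on few cells. Its log2 ratio of 1.15 became 0.36 without the 10 deepest cells of each stage, and the call was also lost in the mean or median over cells, in thinned cells and without the 1 cell with most *Trim28* UMIs in each stage.

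From GO1 to GO2, *Zfp445* passed the size rule as lower, 2.58-fold (2.09 to 3.21), and 0 members were higher, where 3.03% of 7356 genes were lower and 0.109% were higher. The log2 ratio of -1.37 was -2.04 without the 10 deepest cells of each stage and -1.40 without the cell with most *Zfp445* UMIs. In the median cell the levels were 6.67 and 4.11 CPM, both under the limit. The other members stayed within 2-fold, and the directions of *Dnmt1*, *Uhrf1*, *Dppa3*, *Zfp57*, *Tet2* and *Tet3* turned when the 10 deepest cells of each stage were left out.

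From GO2 to GO3, where 3.34% of 7334 genes were higher and 1.01% lower, 0 members passed in either direction. Of the members that reached 10 CPM in either stage, *Tet1* was nearest to the limit, 1.85-fold higher in GO3 (1.55 to 2.23). Below 10 CPM in both, *Zfp445* was 1.90-fold and *Tet2* 2.67-fold higher in GO3. From GO3 to FGO, 0 members passed either, beside 2.41% of 7622 genes higher and 3.54% lower. The maintenance pair and *Dppa3* were all higher in FGO without reaching the limit, with *Dnmt1* 1.51-fold (1.496 to 1.53), *Uhrf1* 1.56-fold (1.53 to 1.59) and *Dppa3* 1.33-fold (1.32 to 1.34) above GO3. *Tet1* was 1.99-fold (1.74 to 2.28) lower, just under the limit, and passed it with DESeq2 or TMM scaling, in the mean and in the median over cells, in thinned cells, without the 10 deepest cells and without its top cell. Of 44 GO3 cells, 44 lay above the median FGO cell for *Tet1*, and 0 lay above it for *Dppa3*.

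Across growth as a whole, from NGO to FGO, *Uhrf1* was the member past the size rule, 2.95-fold lower (2.90 to 3.00), where 16% of 8132 genes were lower. Higher by the rule were 0 members, beside 11.3% of all genes. *Dnmt1*, *Dppa3* and *Zfp57* were each 1.47-fold lower, and *Tet3* was 1.78-fold higher (1.71 to 1.85). *Tet3* reached the 2-fold limit with TMM factors (log2 ratio 1.005) and was at 0.48 by the mean over cells and 0.49 in thinned cells, against 0.83 in the sums, and its median cell was at 104.6 CPM in NGO and 183 CPM in FGO.

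**Figure D2:**
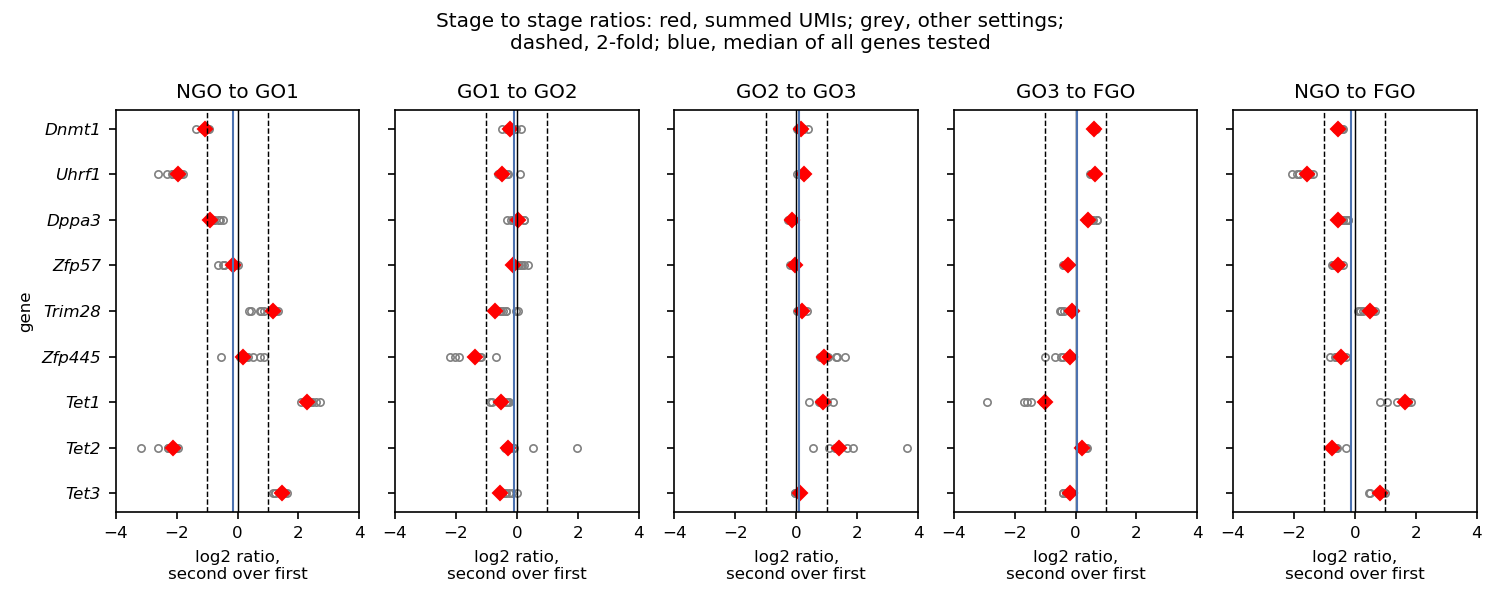
Log2 ratio of each member between stages, second over first. Red diamonds are summed UMIs, grey circles the other settings, dashed lines 2-fold and the blue line the median of all genes tested (-0.15 from NGO to GO1). *Uhrf1* and *Tet3* stay beyond 2-fold from NGO to GO1 in every setting, and *Trim28* does not.

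To compare the share of cells with a UMI at 1 depth, each cell was thinned to 20000 UMIs, which left out 0 cells. *Dnmt1* and *Dppa3* were then found in 100% of cells of every stage, and *Uhrf1* in 100% except in GO2, with 88.5% (interval 69.8% to 97.6%). *Tet3* was found in 78.3% of NGO cells (63.6% to 89.1%) and in 96.4% to 100% of the others. *Trim28* had 43.5% to 54.9%, *Zfp445* 10.7% to 30.4%, *Tet1* 0% to 31.8% and *Tet2* 0% to 10.7%. The 0% of *Tet1* and *Tet2* is that of 26 thinned GO2 cells (interval up to 13.2%), and with all UMIs 84.6% and 50% of GO2 cells had one. Only oocytes were measured, so no cell type that lacks these genes gives a background level.

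The spread between cells differed among the members. As the variance of thinned UMIs over their mean, which is 1 for counting error alone, *Dppa3* had 15.9, 10.04, 5.41, 4.33 and 22.6 over the 5 stages. It was the 4th most variable by this measure of 3706 genes in NGO and the 5th of 3378 in FGO, where the medians of all genes were 1.20 and 1.31. In GO1, GO2 and GO3 *Dppa3* ranked 65th of 3252, 88th of 3250 and 37th of 3437. *Dnmt1* had 6.45 in NGO and 5.74 in FGO and 2.65 to 3.25 between them. This measure grows with the mean, which for both genes was highest in NGO and FGO among thinned cells, apart from any change in relative spread. As the variance beyond counting error over the squared mean, *Dnmt1* had 0.133, 0.0919, 0.147, 0.1013 and 0.174 and *Dppa3* 0.0824, 0.0764, 0.0394, 0.0347 and 0.139 from NGO to FGO, so that FGO was highest for both and NGO was below GO2 for *Dnmt1*. As variance over mean, *Tet3* peaked at 6.08 in GO1, where its thinned mean was also highest, and *Zfp57* stayed between 1.08 and 1.83. As the variance beyond counting error over the squared mean, *Tet3* had 0.746, 0.726, 0.224, 0.135 and 0.113 from NGO to FGO, so NGO was as high as GO1.

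Part of this spread followed the depth of a cell. In FGO the per-cell CPM of *Zfp57*, *Trim28*, *Tet3*, *Tet1* and *Uhrf1* had Spearman rho with the UMIs per cell of 0.70, 0.61, 0.56, 0.53 and 0.53, that of *Dnmt1* 0.05 and that of *Dppa3* -0.64. For the 8671 genes that reached 10 CPM in some stage, 90% of the FGO values lay between -0.47 and 0.67, with a median of 0.29, so *Dppa3* was below and *Zfp57* above that range. The rho of *Dppa3* with depth was 0.16 in NGO, -0.08 in GO1, -0.47 in GO2 and -0.14 in GO3. Its GO2 value was also below the range of 90% of genes in that stage (-0.39 to 0.69). The FGO sum was below the mean over cells for *Dppa3* (6261 against 7868 CPM) and above it for *Zfp57* (309.6 against 266 CPM).

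Co-variation was read within each stage, as Spearman rho over thinned cells averaged over 20 draws, for the 5 members with at least 1 UMI per thinned cell. Cells of a stage share libraries, so these are descriptions with no test. Among the 10 pairs, *Dnmt1* and *Uhrf1* had the highest mean rho, 0.24, with 0.19, 0.34, 0.30, 0.17 and 0.19 from NGO to FGO. *Uhrf1* was 20th among 3449 genes ranked by mean rho with *Dnmt1*, for which 90% of genes lay between -0.14 and 0.14. *Dnmt1* was 63rd among those ranked by mean rho with *Uhrf1*, where the range was -0.16 to 0.19. With all UMIs of a cell the mean rho of this pair was 0.41.

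*Dppa3* had a negative mean rho with the other 4. Its mean rho was -0.36 with *Uhrf1*, -0.30 with *Tet3*, -0.23 with *Dnmt1* and -0.20 with *Zfp57*, below 0 in 5 of 5 stages for *Uhrf1*, *Tet3* and *Zfp57* and in 4 of 5 for *Dnmt1* (0.09 in FGO). Of all 3449 genes, 90% had a mean rho with *Dppa3* between -0.29 and 0.23, so *Uhrf1* and *Tet3* lay below that range and *Dnmt1* and *Zfp57* inside it. The pair with *Uhrf1* ran from -0.19 in NGO to -0.50 in GO2. For *Tet3*, *Dppa3* ranked 3449th of 3449 genes, the last place, and for *Dppa3*, *Tet3* ranked 3291st. Averaged over the 4 pairs with *Dppa3* the mean rho was -0.27, and over the other 6 pairs it was 0.12. With all UMIs the 2 averages were -0.43 and 0.24, further from 0 and of the same sign.

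**Figure D3:**
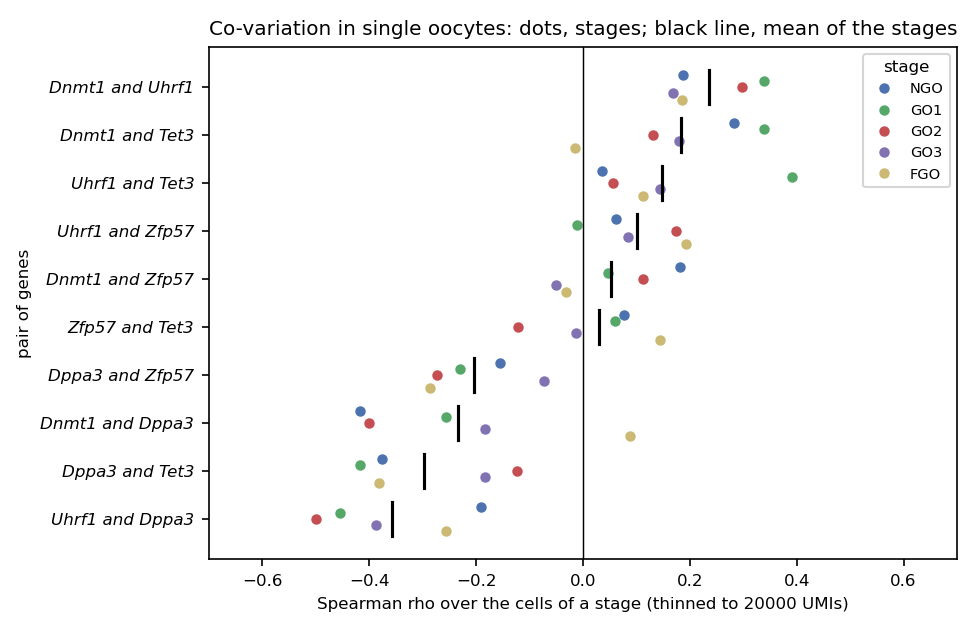
Spearman rho of the 10 pairs of members over the cells of each stage, thinned to 20000 UMIs, with the mean of the 5 stages as a black line. The 4 pairs with *Dppa3* have means from -0.36 to -0.20, and the other 6 from 0.03 to 0.24.

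Transcript length moved with these values. *Dppa3* has a short transcript (833 bases) and *Tet3* a long one (10904 bases). The 50 genes with the highest mean rho with *Dppa3* had a median length of 950.5 bases, against 2391 bases for all genes compared, and for *Tet3* the 50 lowest had 871.5 bases and the 50 highest 3111. Across genes, which are not independent, the rho with a member correlated with length at -0.25 for *Dppa3*, 0.50 for *Tet3*, 0.31 for *Dnmt1*, 0.19 for *Uhrf1* and -0.05 for *Zfp57*. The part of length, or of RNA quality that acts by length, in the co-variation of the members was not tested. Nor was the part of depth, since thinning does not remove a level that differs with depth. In FGO the rho with depth was -0.64 for *Dppa3*, and 0.70, 0.56, 0.53 and 0.05 for *Zfp57*, *Tet3*, *Uhrf1* and *Dnmt1*. In NGO it was 0.16 for *Dppa3*, and 0.26, 0.03, 0.33 and -0.09 for the same genes.

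**Figure D4:**
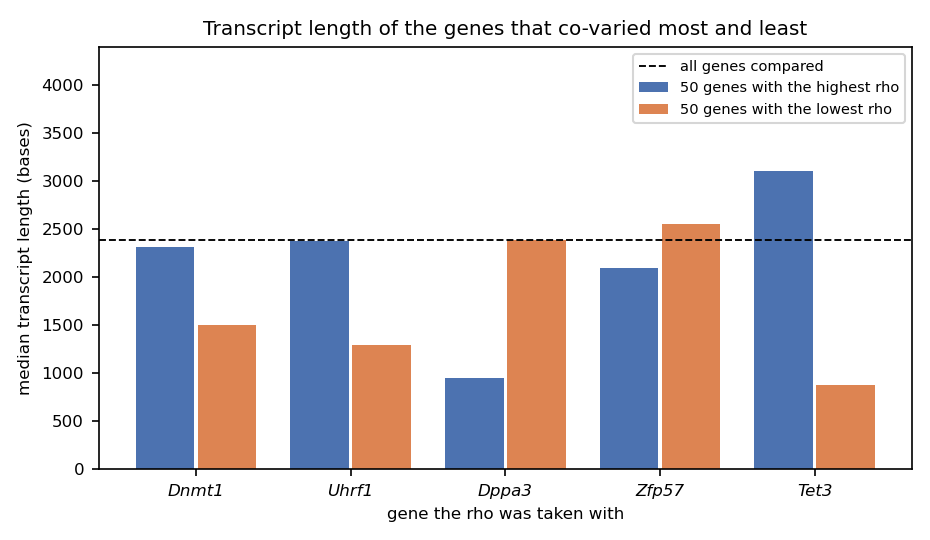
Median annotated transcript length, in bases, of the 50 genes with the highest (blue) and lowest (orange) mean rho with each of 5 members, with the median of all genes compared (2391) as a dashed line. For *Dppa3* the highest are short (950.5), and for *Tet3*, *Uhrf1* and *Dnmt1* the lowest are (871.5, 1293 and 1504.5).

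The genes most like a member in single cells, by mean rho over the 5 stages, were led by *Tle6*, a gene of the subcortical maternal complex, for *Uhrf1* (0.45), followed by *Slc45a3* (0.40) and *Zar1* (0.40). *Dnmt1* was most like *Rn45s*, the ribosomal RNA precursor (0.38), *Hsp90aa1* (0.34) and *Tle6* (0.33). Among the genes nearest to *Dppa3* were *Rbx1* (0.54) and *Dpy30* (0.50). The values of *Tet3* (*Slc45a3* 0.31, *C86187* 0.30, *Rgs2* 0.28) and *Zfp57* (*Oas1e* 0.26, *Zar1* 0.24, *Uchl1* 0.22) were lower. *Tle6* was thus among the nearest 3 genes of both maintenance genes.

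By the profile of the 5 stage sums, over 8670 genes and as the root mean square distance of centred log2 levels, the nearest genes were *Bap1* (0.04) for *Dnmt1*, *Nomo1* (0.06) for *Uhrf1*, *Trafd1* (0.03) for *Dppa3*, *Mrpl16* (0.03) for *Zfp57* and *Nedd9* (0.03) for *Tet3*. *Trim28* was nearest to *Zfp280b* (0.03). The 2 rarer members that reached 10 CPM had more distant neighbours, *Kit* (0.07) for *Zfp445* and *Fam229b* (0.13) for *Tet1*. With 5 points a profile, many genes lie close to each member.

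Around the members, 68 other genes in 8 lists of partners and pathways were read from NGO to GO1. Of these, 57 reached 10 CPM, 7 were higher and 14 lower by the size rule, where 20.6% of all genes tested were higher and 25.7% lower, with a median log2 ratio of -0.19 against -0.15 for all genes. The share lower was thus near that of all genes and the share higher was below it. Levels of these genes are given as stage sums. By the median over cells, 6 of the 7 higher and 14 of the 14 lower calls were kept (*Ctcf* was lost), and 25 of 56 genes in all were lower, beside 43.6% of all genes. Without the 10 deepest cells 7 and 13 were kept (*Arid4b* was lost), and 24 of 58 were lower, beside 37.6%. By the mean over cells and in thinned cells 7 and 12 were kept (*Cdca7* and *Arid4b* were lost). In all, 20 and 22 of 57 were then lower, beside 34.6% of all genes in each. With DESeq2 factors 7 and 12 were kept (*Ctcfl* and *Shmt2* were lost), and with TMM factors 7 and 13 (*Shmt2* was lost). Among the partners of UHRF1 and DNMT1, 7 of 9 were tested, 0 were higher and 3 were lower. These were the histone methyltransferase gene *Ehmt2* (16.3 to 2.69 CPM, 6.05-fold), the DNA ligase gene *Lig1* (177 to 69.1 CPM, 2.56-fold) and the HELLS partner *Cdca7* (26.8 to 11.6 CPM, 2.30-fold). *Hells*, the remodeller that CDCA7 works with, went from 207 to 349 CPM (1.69-fold higher, under the limit), and *Pcna*, the replication clamp, from 164 to 202 CPM. The list median was 0.30 on the log2 scale.

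Among 10 TRIM28 silencing partners, all tested, *Trim24*, a bromodomain cofactor that binds TRIM28, was higher (21.5 to 68.7 CPM, 3.20-fold) and the heterochromatin protein gene *Cbx3* was lower (53.2 to 11.2 CPM, 4.74-fold), with a list median of 0.35. *Setdb1*, the histone methyltransferase brought by TRIM28, had 18.8 and 28.3 CPM (1.502-fold higher). Of 9 other imprint factors, all tested, 3 were higher and 2 were lower. *Arid4a* was 3.95-fold, *Nlrp2* 3.22-fold and *Ctcf* 2.47-fold higher, while *Ctcfl*, the germline paralogue of *Ctcf*, was 4.82-fold lower (11.4 to 2.35 CPM) and *Arid4b* 2.53-fold lower. The paralogue pairs *Arid4a* with *Arid4b* and *Ctcf* with *Ctcfl* were thus on opposite sides in the stage sums. The calls of *Arid4b*, *Ctcf* and *Ctcfl* were each lost in some of the settings above.

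Of the 4 de novo methylation genes, *Dnmt3l* was 7.30-fold higher and *Kdm1b*, the H3K4 demethylase needed for maternal imprints, was 3.72-fold lower (361 to 96.9 CPM). Of 10 TET cofactors 7 were tested, and 1 was higher, the CRL4 adaptor gene *Vprbp* (11.8 to 38.99 CPM, 3.31-fold), and 1 lower, the scaffold gene *Cul4a* of the same ligase (73.3 to 16.9 CPM, 4.34-fold). In base excision repair, which acts after TDG, 9 of 10 genes were tested, 1 was higher and 3 were lower. *Neil3*, a glycosylase, was higher (107.9 to 269.7 CPM, 2.50-fold). *Parp1* (119.5 to 17.5 CPM, 6.82-fold), *Xrcc1* (233 to 89.04 CPM, 2.62-fold) and the uracil glycosylase gene *Ung* (298 to 118.6 CPM, 2.51-fold) were lower. The other thymine glycosylase, *Mbd4*, was at 16.8, 14.8, 11.9, 12.4 and 17.3 CPM across the 5 stages.

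Of 7 methyl-CpG readers 4 were tested, and *Zbtb38* was lower, from 364 to 10 UMIs (38.6-fold, 20.8 to 81.3), with 0 higher and a list median of -0.76. Of 9 genes of methyl donor supply 7 were tested, 0 were higher and 2 lower, the serine hydroxymethyltransferase genes *Shmt1* (24.96 to 2.13 CPM, 11.7-fold) and *Shmt2* (79.8 to 38.5 CPM, 2.07-fold), with a list median of -0.66. From GO1 to GO2 the 68 genes gave 0 higher and 3 lower of 50 tested, beside 0.109% and 3.03% of all genes. By the mean over cells 2 were higher and 9 lower, beside 4.16% and 12.3%. By the median over cells 5 were higher and 4 lower of 44, beside 17.8% and 4.58%. Without the 10 deepest cells 6 were higher and 9 lower of 50, beside 9.43% and 8.24%. *Dnmt3l* was among the calls added in each of these settings. From GO2 to GO3 the 68 genes gave 5 higher and 0 lower of 50, beside 3.34% and 1.01%. From GO3 to FGO they gave 0 higher and 1 lower of 50, beside 2.41% and 3.54%. From NGO to FGO they gave 4 higher and 9 lower of 57, near the 11.3% and 16% of all genes.

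**Figure D5:**
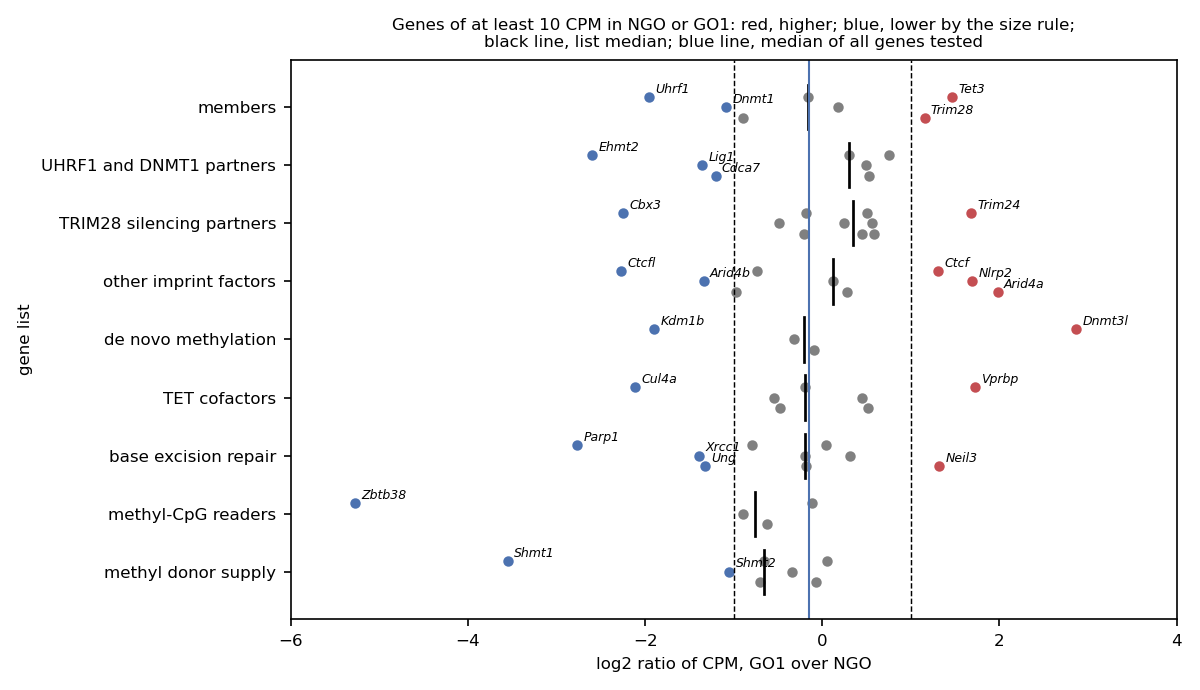
Log2 ratio of CPM, GO1 over NGO, of the members and 8 lists of pathway genes that reached 10 CPM in NGO or GO1. Red dots are higher and blue dots lower by the size rule, black lines are list medians and the blue line the median of all genes tested (-0.15). In these stage sums *Zbtb38* and *Shmt1* lie farthest down, and *Dnmt3l* farthest up.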

How the data were processed

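The oocytes of all stages went into 4 single-cell RNA-seq libraries. The authors split the reads by barcode, mapped them to mm9 with Tophat, collapsed duplicates by UMI, filtered the cells and deposited raw UMI counts. Whether strand was used, and how reads with several alignments were treated, is not given in the sources used here. The iscCOOL-seq data were not analysed here.

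Columns name a stage and not a library, so counts were summed per stage and divided by the total (24976634 to 64311908 UMIs) to give CPM. Poisson, binomial-split and Clopper-Pearson intervals (95%) were exact and cover counting error only. With 1 pooled sample a stage no p-value was computed. Genes counted as tested reached 10 CPM in either stage. Cells were thinned to 20000 UMIs (shares and variances from 1 draw, other values from 20). Averaging over 20 draws was adopted after the values of 1 draw had been seen. A doublet caller was not run, since oocytes were picked by hand.

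Members and lists were chosen with earlier results of these data known. Named were all members, up to 2 largest rises and 2 largest falls per list among genes past the size rule, genes that a count of 5 or fewer turned on, and the nearest genes of each member (up to 3, of which 1 is not reported here). *Hells*, *Pcna*, *Setdb1* and *Mbd4* were named after their values were seen. Likeness needed a mean of at least 1 thinned UMI. Gene positions and transcripts are GENCODE vM1 on NCBIM37, the same build as mm9. Promoters are RefSeq on GRCm38.p6, with a window for 9 of 10 members. Copies were sought with minimap2 2.31-r1302 at 95% identity or more.

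Alternatives were DESeq2 1.42.0 and TMM factors (edgeR 4.0.16), the mean and median over cells, thinned cells, leaving out the 10 deepest cells or the top cell of each member, no minimum or 50 CPM, and 1.5-fold. The median, the top cell, the single draw and the settings for the pathway lists were chosen after seeing the data. The size rule was tested on simulated data. Software was R 4.3.3 and Python 3.11.15 with scipy 1.17.1, pandas 2.3.3, numpy 2.4.6 and matplotlib 3.10.9.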

Additional observations from a re-analysis of the deposited data

How the results depend on the processing

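No paired analysis was possible because each stage was 1 pooled sample and the cell numbers pair nothing. Of 311 member ratios recomputed, 291 kept the direction of the summed UMIs and 20 did not, in steps that included those of *Zfp57*, *Dppa3* and *Tet3*. Ratios against a thinned or median level of 0 gave no value. From NGO to GO1 the members called lower fell from 2 to 1 with DESeq2 or TMM factors, and those called higher from 2 to 1 by the median over cells or without the top cell. Of all genes tested, 22.8% and 21.6% were lower with these factors, and 17.3% were higher by the median over cells. By the mean over cells, in thinned cells or without the 10 deepest cells the count higher stayed at 2, but for *Tet1* and *Tet3* in place of *Trim28* and *Tet3*. In these settings 22.1%, 22.2% and 21.6% of all genes tested were higher. From GO1 to GO2 the count lower was 0 at 50 CPM or by the median over cells and 2 at 1.5-fold, against 1. By the median over cells 4.58% of all genes tested were lower in this step. From GO2 to GO3 the count higher was 1 by the mean over cells, with no minimum or at 1.5-fold and 2 in thinned cells, against 0. Higher among all genes tested were 5.09% by the mean over cells and 5.57% in thinned cells. From GO3 to FGO the count lower was 1, for *Tet1*, with DESeq2 or TMM factors, by the mean or median, in thinned cells, without the deepest cells, without the top cell or at 1.5-fold, and the count higher was 2 at 1.5-fold, against 0 for each. Of all genes tested, 3.99% and 4.07% were lower with DESeq2 and TMM factors, and 5.57% and 6.42% by the mean and median. In thinned cells and without the deepest cells 5.82% and 4.94% were lower. From NGO to FGO the count higher was 1 with TMM factors, with no minimum or at 1.5-fold, against 0. With TMM factors 15.2% of all genes tested were higher in this step. No share of all genes was computed for no minimum, 50 CPM, 1.5-fold or without the top cell. The cause of these moves in the member counts was not tested. The mean rho of *Dppa3* with the other members was -0.43 with all UMIs against -0.27, and that among the others was 0.24 with all UMIs and 0.17 at 50000 UMIs against 0.12. In the single draw seen before draws were averaged these were -0.28 and 0.11, the mean rho of *Dnmt1* with *Uhrf1* was 0.29 against 0.24, that of *Dppa3* with *Tet3* was -0.35 against -0.30, and that of *Dnmt1* with *Zfp57* was -0.018 against 0.052. Members with a UMI in at least 90% of cells of every stage numbered 5 with all UMIs or at 50000 UMIs, and 3 at 20000. Depth limits *Tet1*, *Tet2* and *Zfp445*, whose levels rest on 30 to 558 UMIs a stage.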
